A study of Arabidopsis thaliana with 18 samples.

Results

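Plants of the Arabidopsis thaliana accession Tsu-1 treated with salicylic acid (SA) were compared between the third and the second triplet of SA arrays. The third triplet held arrays 106, 107 and 108 and the second held arrays 103, 104 and 105, so 6 of the 18 arrays of the series entered the comparison. The arrays were chosen by the numbers in their titles and paired by replicate number (106 with 103, 107 with 104, 108 with 105). All 6 had the same treatment, SA at 0.30 mM with silwet at 0.02%; silwet is a surfactant that helps a spray spread over leaves. The arrays set beside them were silwet arrays 97, 98 and 99 (the third triplet) and 94, 95 and 96 (the second triplet), treated with 0.02% silwet and no SA. The first triplets were SA arrays 100, 101 and 102 and silwet arrays 91, 92 and 93. The labels do not give what separates the triplets. They are taken here as successive harvests of one course, an order that the labels do not state, and no tissue, plant age or hour of harvest is given. Nothing in the labels says that the 3 arrays of a triplet are from different plants, and the p-values below then measure only array-to-array spread, which may be technical.

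SA is a plant hormone that rises after attack by pathogens that feed on living tissue. It acts through the receptor NPR1 and TGA transcription factors, which switch on defence genes, and its level is lowered by enzymes that attach a sugar or a methyl group to it. Many SA-responsive genes, such as those for WRKY transcription factors, are known to respond early and to return later, and SA opposes part of the jasmonate response to wounding and to pathogens that kill tissue.

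The arrays were Affymetrix ATH1 chips, which carry short probes for most Arabidopsis genes, and all values below are log2 of the deposited signal. Correlations between arrays over 15922 probe sets ran from 0.948 to 0.971 within the third SA triplet, from 0.949 to 0.960 within the second, and from 0.929 to 0.977 between them. The 2 arrays least like the rest of the series, 100 and 97, had mean correlations of 0.852 and 0.880 with the others and are in neither SA triplet compared here, but they enter the estimate of the spread. Leaf genes were bright in both triplets: RCA, which encodes Rubisco activase, was at 11.48, 11.45 and 11.53 on the third-triplet arrays, against 11.58, 11.85 and 11.63 on the second-triplet arrays. Of the fixed marker genes, 3 of 6 for leaf and 1 of 4 for root had a single-gene probe set past the signal filter, and none of those for flower, pollen or seed did. The root gene, PYK10, a beta-glucosidase of endoplasmic reticulum bodies, was at 6.83, 7.39 and 6.96 against 7.39, 7.73 and 8.18. PYK10 was lower by 0.71 on the log2 scale (SE 0.37, limma adjusted p = 0.823), and its part in other differences was not tested. The 3′ to 5′ log2 ratio of the actin control probes, a sign of RNA integrity, was 2.06, 1.70 and 1.5 on the third-triplet arrays, against 2.17, 2.33 and 1.61 on the second-triplet arrays. That of the GAPDH control probes was 0.01, 0.31 and -0.06 against 0.66, 0.08 and -0.24, highest on array 103. The part of RNA integrity in the differences was not tested.

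Between the 2 SA triplets 1 named gene rose, the antenna gene LHCB4.3, which encodes a chlorophyll-binding protein of photosystem II. LHCB4.3 was at 8.05, 8.33 and 7.88 on arrays 106, 107 and 108, against 6.45, 6.97 and 6.16 on arrays 103, 104 and 105. The groups did not overlap, and the difference was 1.56 ± 0.16 (log2, SE, 3 pairs), a 2.94-fold rise with an adjusted p of 0.00198 in limma. The probe set 261266_at, which has no single gene in the annotation used here, fell: it was at 6.70, 7.05 and 6.92 in the third triplet, against 8.72, 7.98 and 8.24 in the second. Its difference was -1.42 ± 0.19 (SE), a 2.68-fold fall with a limma adjusted p of 0.0136, and again the groups did not overlap. Both calls were lost without the replicate block (adjusted p = 0.395 for LHCB4.3 and 0.321 for 261266_at). LHCB4.3 also lost its call with the 9 SA arrays only (0.245) and without replicate number 2 (0.226) or 3 (0.721) in every group, and kept it with any 1 of the 6 arrays left out. 261266_at lost its call with the 12 arrays of the second and the third triplets (0.0531), with the 9 SA arrays (0.437), without replicate number 1 (0.0857), 2 (0.226) or 3 (1), and without array 103 (adjusted p = 0.139), 105 (0.0668) or 108 (0.0707).

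These were the only 2 probe sets past an adjusted p of 0.05 in the limma fit of all 18 arrays, 1 higher (0.00628%) and 1 lower (0.00628%) of 15922 tested. At an unadjusted p under 0.05 there were 516 higher (3.24%) and 507 lower (3.18%). The 3 arrays of the third triplet were all above the 3 of the second for 851 probe sets (5.34%) and all below for 818 (5.14%). All 3 pairs differed upward for 2952 probe sets (18.5%) and downward for 2750 (17.3%), and the median absolute difference over all probe sets was 0.17. The number of calls changed with the arrays fitted and with the replicate block. In a limma fit of the 6 SA arrays alone, paired by replicate, 31 probe sets were higher (0.195%) and 50 lower (0.314%). In a fit of 16 arrays without arrays 97 and 100, 37 were higher (0.232%) and 42 lower (0.264%). With the 9 SA arrays 0 and 0 were called, with the 6 arrays without the block 0 and 0, and with the 12 arrays of the second and the third triplets 1 and 2. The fit of the 6 SA arrays with the block and that of 16 arrays shared 42 calls, 51.9% of the 81 in the first and 53.2% of the 79 in the second, and both calls of the 18-array fit were among the calls of each.

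**Figure D1:**
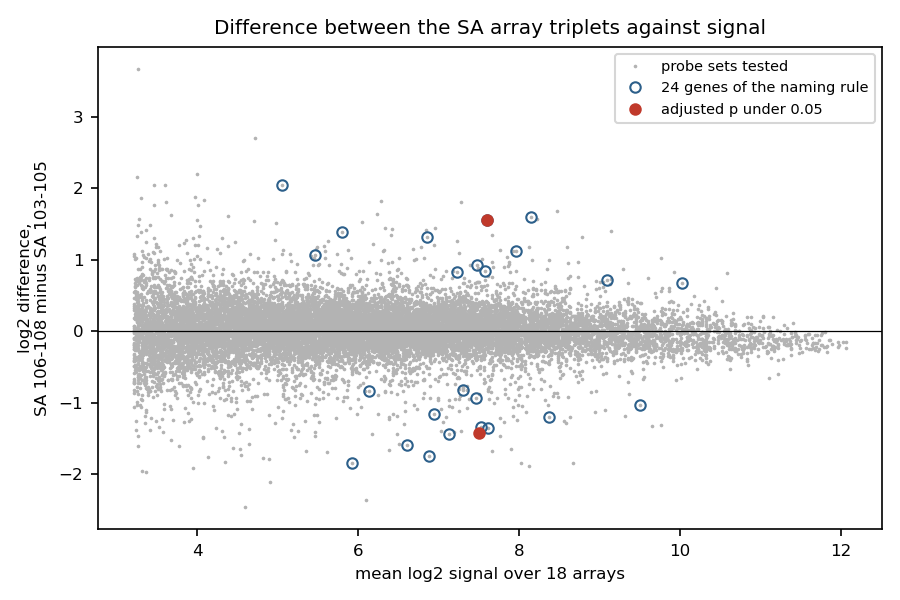
Log2 difference between the SA triplets (vertical axis, arrays 106 to 108 minus 103 to 105) against the mean log2 signal over 18 arrays (horizontal axis) for 15922 probe sets (grey), the 24 genes of the naming rule (open circles) and the 2 probe sets past the adjusted threshold (red). The red points stand at 1.56 (LHCB4.3) and -1.42 (261266_at), among many grey points of like size.

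Differences were followed for 12 genes higher and 12 genes lower in the third SA triplet, those with the smallest unadjusted p among moderately bright genes with the same sign in all 3 pairs. Apart from LHCB4.3, none of them passed the limma threshold with 18 arrays: adjusted p-values ran from 0.0971 to 0.182 for the other 11 higher genes and from 0.0786 to 0.16 for the 12 lower ones. The choice used these same differences, so they are a description of the arrays. The groups did not overlap for 10 of the 12 higher and 9 of the 12 lower genes (5.34% and 5.14% of all probe sets). With the 6 SA arrays alone, 7 of the higher and 9 of the lower genes passed a limma adjusted p of 0.05 (0.195% and 0.314% of all probe sets). Without arrays 97 and 100, 11 and 12 of them did (0.232% and 0.264%). The choice by p and by sign on these same arrays largely fixed such counts in advance.

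**Figure D2:**
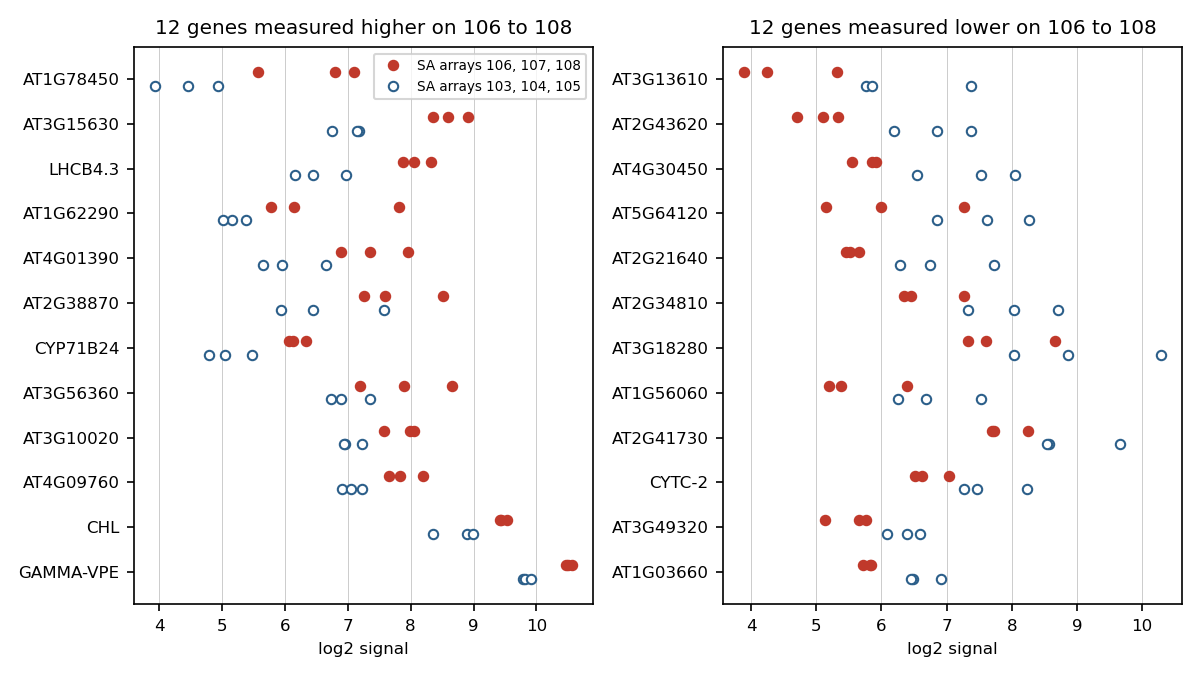
Log2 signal (horizontal axis) of the 12 genes measured higher (left) and the 12 measured lower (right) in the third SA triplet, 1 point an array, with arrays 106, 107 and 108 filled and 103, 104 and 105 open. The filled and open points of a gene are apart for 10 genes on the left and 9 on the right (5.34% and 5.14% of all probe sets). The differences run from 0.67 to 2.04 and from -1.84 to -0.82.

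Among the higher genes 2 encode proteases and 1 a protease inhibitor. GAMMA-VPE, a vacuolar processing enzyme that cuts and activates other vacuolar proteins, was at 10.57, 10.47 and 10.50 in the third triplet, against 9.79, 9.82 and 9.92 in the second. Its 3 arrays of the third triplet lay within a narrow band above all 3 of the second triplet, with a difference of 0.67 ± 0.14 (SE, limma adjusted p = 0.138). AT1G62290, an aspartyl protease, was at 7.81, 6.15 and 5.77 against 5.38, 5.16 and 5.01, and array 106 made the largest pair difference (2.43, against 0.99 and 0.76 in the other pairs). AT2G38870, a small serine protease inhibitor of the potato type, was at 7.25, 7.59 and 8.51 against 5.94, 6.45 and 7.57. Its groups overlapped because replicate 3 was high in both triplets, while each pair differed the same way (1.13 ± 0.27, SE).

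A chloroplast protein and a haem-binding family member were also in the higher set. CHL, a chloroplast lipocalin that protects thylakoid membranes, was at 9.44, 9.53 and 9.42 in the third triplet, against 8.90, 8.99 and 8.36 in the second (difference 0.71 ± 0.14, SE). AT1G78450, of the SOUL haem-binding family, had the largest difference of the 12, 2.04 ± 0.45 (SE), at 6.79, 5.57 and 7.10 against 4.46, 4.94 and 3.93. Neither gene's groups overlapped, and their limma adjusted p-values were 0.101 and 0.154.

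AT3G15630, a gene of little known function, was at 8.92, 8.59 and 8.35 in the third triplet, against 7.17, 7.14 and 6.75 in the second. The difference of 1.60 ± 0.29 (SE, limma adjusted p = 0.0971) passed with the 6 SA arrays alone (adjusted p = 0.00489). AT3G10020, induced by low oxygen in other work, was at 7.99, 8.06 and 7.58 against 6.95, 7.23 and 6.94 (0.84 ± 0.20, SE). The cytochrome P450 gene CYP71B24 was at 6.33, 6.13 and 6.06 against 5.48, 4.79 and 5.04 (1.07 ± 0.20, SE). These 3 genes were higher on every array of the third triplet than on any of the second. The choline kinase family gene AT4G09760 (0.83 ± 0.15, SE), the TRAF-like gene AT4G01390 (1.31 ± 0.30, SE) and AT3G56360 (0.92 ± 0.20, SE) made up the set.

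Among the lower genes 4 encode enzymes of coumarin synthesis, chitin breakdown or oxidation. AT3G13610 encodes F6'H1, the feruloyl-CoA hydroxylase that makes the coumarin scopoletin, and was at 4.25, 3.89 and 5.32 in the third triplet, against 5.77, 5.86 and 7.37 in the second. Arrays of the third triplet all lay below those of the second, and the difference of -1.84 ± 0.33 (SE, limma adjusted p = 0.0971) was the largest of the 12. AT2G43620, of the chitinase family that cuts fungal cell walls, was at 5.34, 4.71 and 5.11 against 7.37, 6.20 and 6.85 (-1.75 ± 0.35, SE). The cell-wall peroxidase gene AT5G64120 (PRX71) was at 5.15, 5.99 and 7.27 against 7.62, 6.85 and 8.27, with overlapping groups and a difference of -1.44 ± 0.31 (SE). AT2G34810, a berberine bridge enzyme-like oxidase, was at 6.34, 6.46 and 7.26 against 8.04, 7.33 and 8.71 (-1.34 ± 0.30, SE). Replicate 3 was the highest array of both triplets for 3 of these 4 genes, the exception being AT2G43620.

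The lower set also held 2 genes for mitochondrial proteins and 1 of unknown function. AT2G21640, a marker of oxidative stress whose product is mitochondrial, was at 5.52, 5.46 and 5.66 in the third triplet, against 6.28, 6.74 and 7.72 in the second (-1.36 ± 0.23, SE, limma adjusted p = 0.0786). The third-triplet arrays were close together and all below the second triplet, which itself was below the first SA triplet (mean 9.65). The mean of AT2G21640 in the first silwet triplet was 9.94. CYTC-2, a cytochrome c of the respiratory chain, was at 6.51, 6.62 and 7.04 against 7.47, 7.27 and 8.23 (-0.93 ± 0.20, SE). AT2G41730, of unknown function, was at 7.70, 7.73 and 8.25 against 8.57, 8.54 and 9.66 (-1.04 ± 0.21, SE).

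The remaining lower genes encode small or little-known proteins. AT4G30450, a glycine-rich protein, was at 5.92, 5.86 and 5.55 in the third triplet, against 8.05, 6.55 and 7.52 in the second (-1.60 ± 0.31, SE). AT3G18280, of the lipid-transfer protein type, was at 8.66, 7.33 and 7.60 against 10.29, 8.04 and 8.86, with overlapping groups (-1.20 ± 0.24, SE). AT1G56060 (-1.16 ± 0.22, SE), a cysteine-rich membrane peptide, AT3G49320 (-0.83 ± 0.19, SE) and AT1G03660 (-0.82 ± 0.17, SE) made up the set. For 9 of the 12 lower genes the second SA triplet was already below the first, and for 8 of the 12 higher genes the second was also below the first.

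Of 23 genes listed for the SA response, 4 had a single-gene probe set that passed the signal filter, and none was called; all 4 differences were negative, with a median of -0.54 against 0.01 over all probe sets. The median was -0.19 without array 103 and -0.89 without array 104, and the mean difference of the 4 genes was -1.25, 0.11 and -0.54 in the 3 pairs. WRKY53, a transcription factor of defence and leaf senescence, was at 6.13, 5.46 and 6.05 in the third triplet, against 7.77, 6.30 and 6.71 in the second. The groups did not overlap, and the difference was -1.04 ± 0.25 (SE) with a limma adjusted p of 0.183. GRX480, a glutaredoxin that binds TGA factors, was at 6.20, 6.48 and 7.23 against 7.01, 6.36 and 7.42, with overlapping groups (-0.29 ± 0.27, SE). The AAA-type ATPase gene AT3G28510 was at 3.98, 5.13 and 4.35 against 5.41, 4.77 and 5.65 (-0.79 ± 0.79, SE), and its neighbour in family AT3G28540 differed by -0.13 ± 0.36 (SE). WRKY53 and GRX480 had been at 9.29 and 9.55 on average in the first SA triplet, above both later triplets. In the first silwet triplet they averaged 7.92 and 8.05, also above their means in both later silwet triplets. PR1, PR2 and PR5 were not analysed here.

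Of 16 genes listed for SA synthesis and signalling, 2 were tested, SAG101 with a difference of -0.17 ± 0.20 and AT5G52810 with -0.06 ± 0.21 (SE). SAG101 is a partner of EDS1 in immune signalling, and AT5G52810 encodes SARD4, an enzyme of pipecolate synthesis.

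Of 8 genes listed for enzymes that modify SA, 3 were tested, 2 were lower at an unadjusted p under 0.05 (3.18% of all probe sets) and none was called. UGT76B1, which attaches glucose to SA and to isoleucic acid, was at 2.07, 4.40 and 5.81 in the third triplet, against 5.33, 6.05 and 7.99 in the second. Replicate 1 was lowest and replicate 3 highest in both triplets, so the triplets overlapped, and the pair differences were -3.26, -1.65 and -2.18. The mean difference of -2.36 had an SE of 0.55 and a limma adjusted p of 0.182 with 18 arrays, and an SE of 0.28 and an adjusted p of 0.0162 with the 6 SA arrays alone. UGT76B1 averaged 10.72 in the first SA triplet and 6.51 in the first silwet triplet. BSMT1, a methyltransferase that makes methyl salicylate, was at 3.14, 3.16 and 4.26 in the third triplet, against 5.23, 4.25 and 5.37 in the second. Its groups overlapped at 1 array each (4.26 on array 108 and 4.25 on array 104), and the difference was -1.43 ± 0.55 (SE, limma adjusted p = 0.624). No detection calls were used here, so whether signals this low stand above background was not tested.

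**Figure D3:**
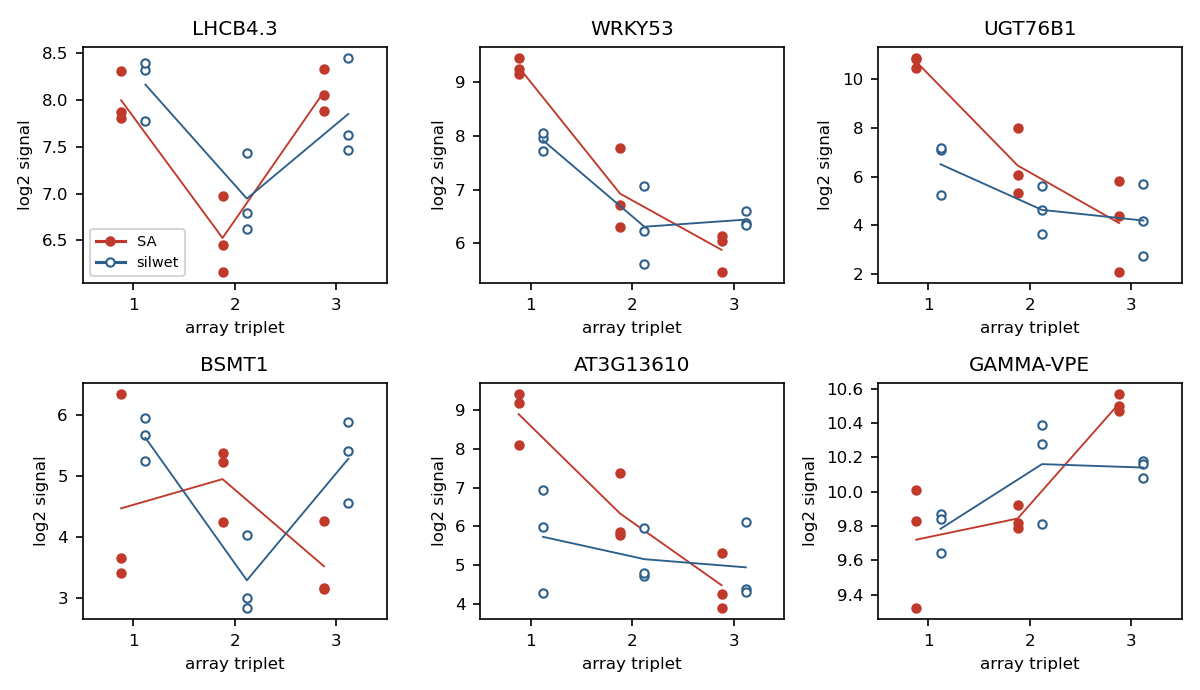
Log2 signal (vertical axis) on every array of 6 genes by array triplet (horizontal axis), SA arrays filled and left, silwet arrays open and right, lines joining the means. UGT76B1 and AT3G13610 averaged 10.72 and 8.89 in the first SA triplet, above the second and the third, LHCB4.3 had its lowest mean in the second triplet of both treatments, and BSMT1 differed between the last triplets by -1.43 on SA arrays and 2.0 on silwet arrays.

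Detoxification genes were mixed. Of 14 tested, none was called, 1 was higher and 2 were lower at an unadjusted p under 0.05 (3.24% and 3.18% of all probe sets), and the median difference was 0.06. GSTU25, a glutathione transferase that responds to foreign compounds, was at 3.52, 3.83 and 3.65 in the third triplet, against 5.24, 4.73 and 6.09 in the second (-1.69 ± 0.32, SE, limma adjusted p = 0.0971). GSTU22, of the same family, was at 2.78, 2.99 and 3.43 against 4.13, 4.11 and 4.51 (-1.18 ± 0.32, SE, adjusted p = 0.277). Neither gene's triplets overlapped, but whether signals this low stand above background was not tested. Both had been brighter in the first SA triplet, at means of 7.11 and 5.75, and also in the first silwet triplet, at 6.99 and 5.14.

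Among 6 jasmonate and ethylene response genes none was called, 2 were higher and 1 lower at an unadjusted p under 0.05 (3.24% and 3.18% of all probe sets). The plant defensin gene PDF1.2b, which needs jasmonate and ethylene together, was at 7.96, 9.79 and 8.94 in the third triplet, against 7.07, 7.10 and 7.82 in the second. PDF1.2, its close copy, was at 8.54, 9.65 and 9.15 against 8.19, 7.09 and 8.53. Arrays of the third triplet were all above those of the second for both, with differences of 1.57 ± 0.54 and 1.18 ± 0.51 (SE) and limma adjusted p-values of 0.516 and 0.703. Pair 2 was the largest for both, and without array 107 the differences were 0.90 and 0.55. On silwet arrays PDF1.2b and PDF1.2 differed by 2.38 and 2.09. The sequences of such copies are alike, so their probe sets may share signal. JMT, a jasmonate methyltransferase (-0.96 ± 0.43, SE), was on the other side of 0.

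Nuclear photosynthesis genes other than LHCB4.3 differed little. Of 13 tested, LHCB4.3 included, 3 were positive and 10 negative, and the median difference was -0.05. The other genes for the same antenna protein, LHCB4.1 (-0.03) and LHCB4.2 (0.15 ± 0.16, SE), were far from the 1.56 of LHCB4.3.

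Genes encoded in the plastid mostly had small negative differences. Of 43 plastid photosynthesis genes none was called, 37 were negative and 6 positive, and the median was -0.24. That median was -0.06 without array 103, -0.15 without array 108 and -0.36 without array 105. The gene ndhI, for a subunit of the plastid NADH dehydrogenase-like complex, was at 10.97, 10.99 and 11.00 in the third triplet, against 11.42, 11.56 and 11.18 in the second. The gene psaJ, for a small subunit of photosystem I, was at 10.52, 10.65 and 10.69 against 10.93, 11.07 and 10.79. Both were below on every array, by 0.40 ± 0.14 and 0.31 ± 0.12 (SE), with limma adjusted p-values of 0.51 and 0.647. Of 25 plastid genes for gene expression and other tasks 18 were negative, with a median of -0.14 that was 0.00 without array 108, -0.03 without array 103, -0.25 without array 105 and -0.27 without array 106. Bright probe sets as a whole also had negative differences: the median difference was -0.11 over the 514 with a mean log2 signal of 10 to 13, and -0.02 over the 2116 between 8 and 10, where the median plastid photosynthesis gene lay (9.17). The part of signal level in the plastid difference was not tested.

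**Figure D4:**
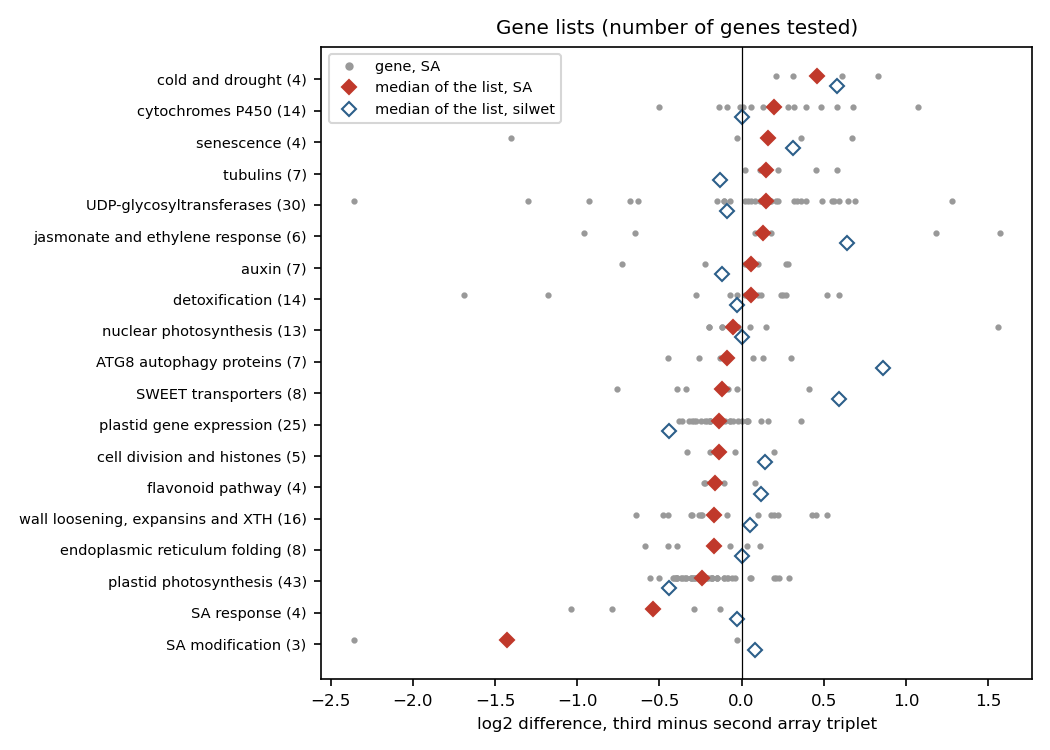
Log2 difference, the third minus the second array triplet (horizontal axis), for gene lists with 3 or more genes tested (number in brackets), with each gene on SA arrays as a grey point, the SA median as a filled diamond and the silwet median as an open diamond. SA medians run from -1.43 (SA modification, 3 genes) to 0.46 (cold and drought, 4 genes), and the ATG8 and SWEET lists have silwet medians of 0.86 and 0.59 beside SA medians of -0.09 and -0.12.

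All 4 cold and drought genes tested had positive differences, with a median of 0.46, and none was called. The mean difference of the 4 genes was 0.44, -0.02 and 1.05 in the 3 pairs, and with arrays left out the median ran from 0.26 to 0.75. COR47, a dehydrin that shields membranes and proteins as cells lose water, was at 11.23, 10.35 and 10.47 in the third triplet, against 10.49, 10.09 and 8.98 in the second (0.83 ± 0.25, SE, limma adjusted p = 0.386). COR15B, a chloroplast protein of the same response, was at 10.81, 10.17 and 10.51 against 10.11, 10.42 and 9.14 (0.61 ± 0.28, SE, adjusted p = 0.752). The triplets overlapped for both, and array 105 was the lowest of the 6 for each. With arrays left out the differences ran from 0.50 to 1.12 for COR47 and from 0.23 to 1.04 for COR15B.

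All 7 tubulin genes had positive differences, with a median of 0.15 (0.07 to 0.24 with arrays left out) and none called. TUB5 was at 8.60, 8.84 and 9.03 in the third triplet, against 7.82, 8.69 and 8.24 in the second (0.58 ± 0.19, SE). TUB1 was at 7.08, 7.15 and 6.96 against 6.80, 6.74 and 6.30, without overlap (0.45 ± 0.18, SE). Their limma adjusted p-values were 0.492 and 0.647. Cell division and histone genes, 5 tested, had a median of -0.14, with HTB1, a histone H2B, at -0.14 ± 0.16 and HTB2, another, at 0.20 ± 0.29 (SE).

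Of 8 endoplasmic reticulum folding genes none was called, 6 were negative and 1 was lower at an unadjusted p under 0.05 (3.18% of all probe sets), and the median was -0.17. BZIP60, the transcription factor that switches on chaperones when unfolded proteins build up, was at 7.94, 7.86 and 8.34 in the third triplet, against 8.91, 8.10 and 8.90 in the second (-0.59 ± 0.18, SE, limma adjusted p = 0.392). Its groups overlapped, through array 104. The chaperone gene ATERDJ3B differed by -0.39 ± 0.27 (SE).

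Of 30 UDP-glycosyltransferase genes 21 were positive and 9 negative, 4 were higher and 2 lower at an unadjusted p under 0.05 (3.24% and 3.18% of all probe sets), and the median was 0.15. Over all probe sets 8287 were positive and 7635 negative. UGT85A5 was at 6.56, 5.21 and 5.60 in the third triplet, against 4.41, 4.94 and 4.18 in the second, without overlap (1.28 ± 0.33, SE, limma adjusted p = 0.236). The family thus held differences of both signs, from UGT76B1 at -2.36 to UGT85A5 at 1.28. Of 14 cytochromes P450, 2 were higher at an unadjusted p under 0.05 (3.24% of all probe sets), with CYP71B24 above and CYP71B5 at 0.58 ± 0.22 (SE), and the median was 0.20.

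Of 8 SWEET sugar transporters 7 were negative, with a median of -0.12 (-0.24 to -0.06 with arrays left out). SWEET4 was at 7.22, 5.60 and 5.65 in the third triplet, against 7.78, 6.06 and 6.93 in the second (-0.76 ± 0.30, SE), and the vacuolar SWEET17 differed by 0.41 ± 0.22 (SE). The 7 ATG8 genes, whose products coat autophagosome membranes, had a median of -0.09, with ATG8H at -0.45 ± 0.31 and ATG8E at 0.30 ± 0.27 (SE). Of 16 senescence genes 4 were tested, 2 positive and 2 negative, with a median of 0.16. They included GAMMA-VPE and SAG29, a SWEET-family sugar transporter. SAG29 was at 3.53, 5.75 and 6.12 against 7.15, 5.82 and 6.62 (-1.40 ± 1.01, SE). Its pair differences were -3.62, -0.08 and -0.51, and without replicate number 1 the difference was -0.29. None of these genes was called.

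The other lists held no called gene. Of 16 wall loosening genes, 1 was lower at an unadjusted p under 0.05 (3.18% of all probe sets), XTH29 at -0.64 ± 0.30 (SE) with EXPA16 at 0.52 ± 0.31 (SE), and the median was -0.17. The auxin list (7 genes) had a median of 0.06, with GH3.3, which joins auxin to amino acids, at -0.73 ± 0.53 and IAA18 at 0.27 ± 0.20 (SE). In the flavonoid list (4 genes, median -0.16), DFR at -0.22 ± 0.47 and UF3GT at -0.23 ± 0.50 (SE) had pair differences of both signs. Of glucosinolate genes, UGT74B1 was at 0.06 ± 0.23 and AOP3 at -0.05 ± 0.35 (SE), and the clock gene GI was at 0.41 ± 0.50 (SE). Across all lists 222 genes were tested and 1 was called.

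The silwet arrays show what differed between the second and the third triplets without SA. Silwet and SA triplets were matched by the order of array numbers, and the labels do not state that they belong together. There the limma fit called 4 probe sets higher (0.0251%) and 7 lower (0.044%). Both probe sets called on SA arrays had the same sign on silwet arrays. LHCB4.3 was at 7.63, 8.45 and 7.47 on silwet arrays 97, 98 and 99, against 6.62, 7.43 and 6.79 on arrays 94, 95 and 96, a difference of 0.91 ± 0.16 (SE, adjusted p = 0.0551). 261266_at differed by -0.46 on silwet arrays. Their interactions, the SA change minus the silwet change, were 0.65 (limma unadjusted p = 0.0136) and -0.96 (0.00242), with an adjusted p of 0.443 each. Of the 516 probe sets higher on SA arrays at an unadjusted p under 0.05, 377 (73.1%) were also higher on silwet arrays, against 44.3% of all probe sets with a positive SA difference. Of the 507 lower, 280 (55.2%) were also lower on silwet arrays, against 56.3% of all with a negative SA difference. Over all 15922 probe sets the differences under the 2 treatments had a Pearson correlation of 0.08, given as a description, since probe sets are not independent.

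The difference between the SA and the silwet change, tested as an interaction in limma, passed for 0 probe sets (lowest adjusted p = 0.367); at an unadjusted p under 0.05 there were 1005 higher (6.31%) and 763 lower (4.79%). Of the 12 higher genes 10 had the same sign on silwet arrays, with a median of 1.10 on SA and 0.65 on silwet arrays. AT3G15630 differed by 1.60 on SA and 2.27 on silwet arrays (limma adjusted p = 0.0223 for silwet, interaction -0.67), and AT3G10020 by 0.84 and 1.05. GAMMA-VPE differed by 0.67 on SA and -0.02 on silwet arrays (interaction 0.69, unadjusted p = 0.00412, limma adjusted p = 0.443).

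Of the 12 lower genes 8 had the same sign on silwet arrays, with a median of -1.27 on SA and -0.33 on silwet arrays. AT2G21640 (-1.36 on SA, -1.56 on silwet), AT1G03660 (-0.82 and -0.90) and, from the detoxification list, GSTU25 (-1.69 and -1.82) had silwet differences no smaller than their SA differences (interactions 0.20, 0.08 and 0.13). AT3G13610 differed by -1.84 on SA and -0.21 on silwet arrays (interaction -1.63, unadjusted p = 0.00352) and UGT76B1 by -2.36 and -0.44 (interaction -1.92, unadjusted p = 0.0272). WRKY53 was at 6.61, 6.38 and 6.34 on silwet arrays of the third triplet, against 7.07, 5.62 and 6.24 on those of the second, a difference of 0.13 (interaction -1.18 ± 0.35, SE, unadjusted p = 0.00436). The limma adjusted p of these 3 interactions was 0.443 each. In the third triplet, AT3G13610 was at 4.25, 3.89 and 5.32 on SA and 4.40, 4.32 and 6.12 on silwet arrays, and UGT76B1 at 2.07, 4.40 and 5.81 on SA and 2.74, 4.17 and 5.68 on silwet arrays. Both genes had been higher on SA than on silwet arrays in the first triplet, at means of 8.89 and 5.73 for AT3G13610 and of 10.72 and 6.51 for UGT76B1.

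The ATG8 and SWEET lists had silwet medians of 0.86 and 0.59, beside -0.09 and -0.12 on SA arrays. Array 97 is among those silwet arrays; without arrays 97 and 100 the silwet medians were 0.69 and 0.34 and the median interactions -0.62 and -0.61. The cold and drought list had a silwet median of 0.58, beside 0.46 on SA arrays, and plastid photosynthesis -0.44, beside -0.24. Without arrays 97 and 100 the plastid photosynthesis silwet median was -0.16.

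**Figure D5:**
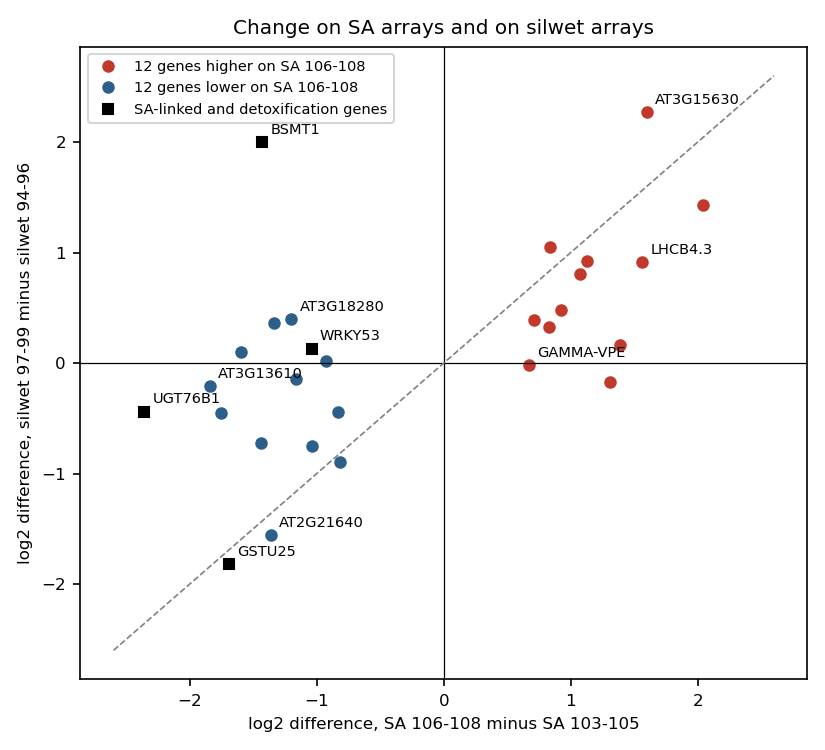
Log2 difference between the third and second triplets on silwet arrays (vertical axis) against that on SA arrays (horizontal axis) for the 12 higher genes (red), the 12 lower genes (blue) and 4 SA-linked and detoxification genes (squares), with a dashed line of equal differences. AT2G21640 and GSTU25 lie near the line, AT3G15630 lies above it (1.60 on SA and 2.27 on silwet arrays), and AT3G13610 and UGT76B1 (-0.21 and -0.44 on silwet arrays) lie near the horizontal axis and BSMT1 (-1.43 and 2.0) lies across it.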

How the data were processed

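Per the submitters' processing notes the authors made the signals with MAS5, with no version given in those notes; the deposited intensity of each probe set has a trimmed mean of about 100.01 on every array, and no value is 0 or below. Log2 of the deposited intensity was taken without a pseudocount. Of 22746 probe sets outside the controls, 6824 with the lowest 30% of mean log2 signal were left out, and 15922 were tested (8743 with 1 gene in the platform annotation, symbols from the RefSeq table of TAIR10.1).

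The main test was limma 3.58.1 in R 4.3.3 (lmFit, eBayes with trend) over all 18 arrays in 6 groups, with the replicate number as a block, since the arrays are compared in pairs by that number, and Benjamini-Hochberg adjustment over all probe sets at 0.05. Deviations from the group means correlated between same-numbered arrays of the 2 SA triplets at 0.353, 0.296 and 0.455. Between the second and the third silwet triplets these correlations were -0.051, 0.051 and 0.36. Over all 45 same-numbered comparisons they ran from -0.159 to 0.627. Residual degrees of freedom were 10, with 4.65 from the prior. The pipeline was checked on simulated data. The arrays give no depth, and their number limits the precision.

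The arrays, genes and lists were chosen with earlier results of these data known. Named genes were those past the threshold with 1 gene, the same sign in 3 pairs and a group mean at or above 6.08, filled up to 12 in each direction by the smallest unadjusted p, plus up to 4 called members, or else the 2 of smallest p, from each list; the probe set 261266_at was named after its values were seen. Of 32 lists, 8 had no gene tested (cytosolic ribosomal proteins, heat shock, nutrient supply, receptor kinases, floral transition, and flower, pollen and seed markers). Alternatives covered the block, the arrays fitted, the filter, a pseudocount, centring, quantile normalization, array weights, the trend and each array left out. Sequences and promoter motifs were not used here.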

Additional observations from a re-analysis of the deposited data

Results flagged for a closer look

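For 7 of the 66 named probe sets (10.6%) all 3 SA pairs differed one way and all 3 silwet pairs the other way. Over all 15922 probe sets tested, 823 (5.17%) did so. The naming rule asked for the same sign in all 3 SA pairs for 24 of the genes, so the count of 7 is a description only. The interaction test in limma, the SA change minus the silwet change, passed for none of the 7 after adjustment, with adjusted p-values from 0.367 to 0.527. BSMT1, which makes methyl salicylate, had an interaction of -3.43 (unadjusted p = 0.00052): it was at 3.14, 3.16 and 4.26 against 5.23, 4.25 and 5.37 on SA arrays, and at 5.88, 4.56 and 5.41 against 3.0, 2.83 and 4.04 on silwet arrays. SAG29, a sugar transporter of senescence, had an interaction of -3.82 (unadjusted p = 0.0174). XTH29, a wall-modifying enzyme, had -1.94 (limma unadjusted p = 0.000337), and AT2G34810, a berberine bridge enzyme-like oxidase, had -1.70 (limma unadjusted p = 0.00133). ATG8H, an autophagy protein, had -1.59 (limma unadjusted p = 0.00237), and HTB1, a histone H2B, had -0.31 (0.191). Some SA pairs hardly differed: the pair differences were -1.24, -0.08 and -0.04 for ATG8H and -0.19, -0.00 and -0.22 for HTB1. For SAG29 they were -3.62, -0.08 and -0.51. AT4G01390, a TRAF-like gene, had 1.49 (limma unadjusted p = 0.00369) and was the only one whose interaction was positive. Array 97, which stood apart from most others, is in the silwet side of each value, and without arrays 97 and 100 the interactions of BSMT1, SAG29 and ATG8H were -3.12, -3.33 and -1.15. On silwet arrays 94, 95 and 96, SAG29 was at 3.47, 4.49 and 2.92, and XTH29 at 2.83, 2.89 and 4.45. Whether signals as low as those of SAG29, XTH29 and BSMT1 stand above background was not tested.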

How the results depend on the processing

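Against 1 probe set called higher and 1 lower in the limma fit with the replicate block, 0 and 0 were called without the block, with the 9 SA arrays only, and with the 6 compared arrays without the block; 31 and 50 with those 6 arrays and the block; 1 and 2 with the 12 arrays of the second and the third triplets or without the trend; 2 and 1 with the block as random or with the lowest 50% left out; 2 and 2 with log2(signal + 16); 1 and 0 after centring; 2 and 3 after quantile normalization; and 37 and 42 without arrays 97 and 100, left out because they stood apart in earlier work on these data. The fits of 12 arrays and of 6 without the block were chosen after seeing the data. Array weights (0.0995 to 3.41, from an estimate that stopped before its tolerance) gave 105 and 147, and 1366 interactions against 0. With 1 array or 1 replicate number left out there were 0 to 3 higher, 0 to 1 lower and 0 to 2 interactions, the 3 and the 2 without array 105. LHCB4.3 lost its call without the block (adjusted p = 0.395), with the 9 SA arrays (0.245), and without replicate 2 (0.226) or 3 (0.721). For 261266_at these were 0.321, 0.437, 0.226 and 1, and it also lost its call with 12 arrays (0.0531), after centring (0.0616) and without replicate 1 (0.0857). Both were lost with the 6 arrays without the block (0.241 each). None of the 24 genes followed by direction changed sign, but their choice by 3 pairs of the same sign largely fixed this in advance. Those that did were UGT74B1 (-0.04) and AOP3 (0.03) with array weights, and with arrays left out GRX480 (-0.51 to 0.02), AT5G52810 (-0.29 to 0.14), DFR (-0.91 to 0.38), UF3GT (-0.93 to 0.47), UGT74B1 (-0.12 to 0.21), AOP3 (-0.24 to 0.07), GI (-0.01 to 0.83) and HTB2 (-0.20 to 0.60). The cause of these differences was not tested.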

Other observations

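Some genes outside the lists and the 24 followed above passed limma's adjusted threshold in the fit of the 6 SA arrays or of the 16 arrays without 97 and 100, and are given as values; they were chosen after their values were seen, and none passed with all 18 arrays. CML37, a calmodulin-like calcium sensor, was at 3.23, 3.25 and 4.37 in the third SA triplet, against 4.47, 4.61 and 5.63 in the second, and differed by -1.28 on SA and 0.45 on silwet arrays. AT5G05600, an oxygenase of the jasmonate oxidase type, was at 6.45, 6.53 and 7.51 against 7.67, 7.37 and 8.47, and differed by -1.01 on SA and 0.60 on silwet arrays. The unadjusted interaction p-values were 0.000221 and 0.000288, with a limma adjusted p of 0.367 for each. HYH, a light-response transcription factor related to HY5, was at 2.41, 3.34 and 3.53 against 3.72, 4.3 and 4.51 (-1.09 on SA, -0.38 on silwet arrays). Whether signals as low as those of CML37 and HYH stand above background was not tested.

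NDB2 and GR1 had negative differences under both treatments. NDB2, an alternative NADH dehydrogenase of mitochondria, was at 7.02, 6.88 and 7.32 in the third SA triplet, against 8.07, 7.45 and 8.61 in the second (-0.97 on SA, -0.92 on silwet arrays). GR1, a glutathione reductase, was at 7.65, 7.12 and 7.66 against 8.25, 7.67 and 8.66 (-0.72 and -0.94). Neither gene's SA triplets overlapped.

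Another 4 genes had positive differences under both. AT3G15450, an aluminium-induced family protein, was at 10.36, 9.90 and 8.99 in the third SA triplet, against 8.44, 8.57 and 8.02 in the second (1.40 on SA, 1.80 on silwet arrays). AT5G61590, which encodes DEWAX, a repressor of cuticular wax synthesis, was at 9.96, 9.59 and 9.35 against 8.0, 8.51 and 8.46 (1.31 and 1.45). AT5G11070 (0.93 and 1.47) and AT3G06070 (1.18 and 1.83) are little known, and the SA triplets of these 4 genes did not overlap.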
